A study of Mus musculus with 8 samples.

Results

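RelA (p65), the NF-kB subunit with the strongest transactivation domain in most cells, was mapped by ChIP-seq in fibroblasts grown from embryos of C57BL/6 mice, wild-type and in primary culture, and the peaks centred at the ends of protein-coding genes are described here. They were chosen by position alone: a peak on chromosomes 1 to 19 was taken when its centre lay within 1 kb of either end of a protein-coding gene in the RefSeq GRCm38 gene table. Distances below are from these outermost ends, not from every start of a gene. The rule found 1218 peaks among the 9688 on these chromosomes (12.6%) and the 9829 of the whole list. All libraries came from cells that had been serum-starved overnight; RelA was precipitated before TNF (0 h) and after 0.5 and 3 h of TNF at 10 ng/ml, from 2 libraries each, and 2 libraries were of input DNA. The labels do not say how many embryos or cultures the 8 libraries came from. The deposited list gives each peak a chromosome, a start and an end, with no height and no library, so neither a time nor a replicate could be compared, the depth is not known, and values carry no replicate error. A peak shows where RelA was cross-linked, not whether a gene was transcribed, so the labelled cell type could not be checked by expression. Peaks are regions of 1 list and not replicates, so every comparison below is a description without a test, and the Wilson 95% intervals cover counting error only.

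NF-kB is kept in the cytoplasm by I-kappa-B proteins until TNF, through its receptor and the IKK kinases, causes their destruction. The freed dimers enter the nucleus and bind kappaB elements, short sequences in promoters and enhancers that begin with a run of G and end with a run of C. Among the genes they switch on in fibroblasts are those of their own inhibitors, which closes a feedback loop, and those of chemokines, cytokines, adhesion molecules and antigen presentation.

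Promoter sequence was available from RefSeq (GRCm38.p6) for 16457 of the 20558 protein-coding genes, as 20085 windows that run from 250 bases before to 50 bases after a start. The windows below belong to 10 genes of the NF-kB response whose own peak covered the window, and show what a kappaB element at such a peak looks like. Letters in capitals mark each match to the kappaB decamer, the 10-letter consensus, on either strand; all other bases are in lower case, written 5′ to 3′ along the gene.
Tnfaip3: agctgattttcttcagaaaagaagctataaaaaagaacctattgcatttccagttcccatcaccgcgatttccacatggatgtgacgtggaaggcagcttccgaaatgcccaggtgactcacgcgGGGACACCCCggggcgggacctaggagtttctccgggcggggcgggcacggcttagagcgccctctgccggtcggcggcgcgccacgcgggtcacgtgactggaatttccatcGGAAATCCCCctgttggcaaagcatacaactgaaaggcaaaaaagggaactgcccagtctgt
Tnip3: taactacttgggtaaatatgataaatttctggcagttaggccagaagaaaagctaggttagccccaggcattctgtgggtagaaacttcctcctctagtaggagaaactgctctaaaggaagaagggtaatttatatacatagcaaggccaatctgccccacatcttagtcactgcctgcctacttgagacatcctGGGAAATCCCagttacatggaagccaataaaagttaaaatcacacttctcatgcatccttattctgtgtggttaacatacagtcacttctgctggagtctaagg
Cyld: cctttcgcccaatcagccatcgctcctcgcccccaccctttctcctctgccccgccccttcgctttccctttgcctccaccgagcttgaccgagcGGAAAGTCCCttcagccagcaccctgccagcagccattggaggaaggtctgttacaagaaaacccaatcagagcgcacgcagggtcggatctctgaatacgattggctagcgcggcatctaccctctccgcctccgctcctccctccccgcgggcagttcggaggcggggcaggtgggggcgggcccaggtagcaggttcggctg
Rel: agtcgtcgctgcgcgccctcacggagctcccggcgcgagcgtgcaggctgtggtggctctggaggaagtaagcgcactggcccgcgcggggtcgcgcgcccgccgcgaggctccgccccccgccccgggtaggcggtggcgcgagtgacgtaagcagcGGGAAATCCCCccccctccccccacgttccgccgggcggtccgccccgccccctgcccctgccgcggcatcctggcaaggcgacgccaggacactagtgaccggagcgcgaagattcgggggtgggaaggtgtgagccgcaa
Map3k7: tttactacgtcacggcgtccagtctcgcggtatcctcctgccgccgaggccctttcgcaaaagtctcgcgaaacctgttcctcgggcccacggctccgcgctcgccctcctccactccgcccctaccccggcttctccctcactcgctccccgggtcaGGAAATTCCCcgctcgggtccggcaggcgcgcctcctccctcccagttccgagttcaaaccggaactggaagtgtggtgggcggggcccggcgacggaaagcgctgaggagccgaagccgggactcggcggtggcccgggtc
Ccl20: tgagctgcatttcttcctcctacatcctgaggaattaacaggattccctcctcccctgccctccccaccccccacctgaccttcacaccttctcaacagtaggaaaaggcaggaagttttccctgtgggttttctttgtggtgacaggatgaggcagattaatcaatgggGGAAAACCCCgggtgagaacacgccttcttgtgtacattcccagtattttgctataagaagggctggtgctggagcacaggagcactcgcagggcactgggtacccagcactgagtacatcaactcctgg
Il6: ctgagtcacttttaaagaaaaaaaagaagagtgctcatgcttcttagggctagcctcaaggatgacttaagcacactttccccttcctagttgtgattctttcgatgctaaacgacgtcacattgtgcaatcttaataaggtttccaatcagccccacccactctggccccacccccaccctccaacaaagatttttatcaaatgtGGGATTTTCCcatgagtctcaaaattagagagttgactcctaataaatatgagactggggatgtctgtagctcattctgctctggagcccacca
Il4ra: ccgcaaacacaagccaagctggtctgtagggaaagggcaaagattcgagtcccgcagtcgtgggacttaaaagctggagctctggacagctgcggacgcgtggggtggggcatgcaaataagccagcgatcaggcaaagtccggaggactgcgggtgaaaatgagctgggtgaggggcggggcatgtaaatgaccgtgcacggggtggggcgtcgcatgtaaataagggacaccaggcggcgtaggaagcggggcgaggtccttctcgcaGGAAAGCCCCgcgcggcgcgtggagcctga
B2m: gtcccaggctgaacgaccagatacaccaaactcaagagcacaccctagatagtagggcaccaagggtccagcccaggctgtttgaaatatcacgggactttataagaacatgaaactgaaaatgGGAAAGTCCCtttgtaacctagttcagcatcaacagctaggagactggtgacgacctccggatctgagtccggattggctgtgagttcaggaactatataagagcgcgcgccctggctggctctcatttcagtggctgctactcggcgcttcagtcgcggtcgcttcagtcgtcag
Irf1: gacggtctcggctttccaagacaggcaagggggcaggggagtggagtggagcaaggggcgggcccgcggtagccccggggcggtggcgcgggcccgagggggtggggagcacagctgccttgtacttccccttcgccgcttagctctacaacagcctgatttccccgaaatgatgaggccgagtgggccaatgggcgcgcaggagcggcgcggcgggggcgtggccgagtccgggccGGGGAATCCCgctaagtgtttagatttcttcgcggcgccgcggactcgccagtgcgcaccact
The windows lie at chr10:19015361-19015660 (minus strand) for Tnfaip3, chr6:65590148-65590447 (plus) for Tnip3, chr8:88696778-88697077 (plus) for Cyld, chr11:23770920-23771219 (minus) for Rel and chr4:31963857-31964156 (plus) for Map3k7. Those of Ccl20, Il6, Il4ra, B2m and Irf1 lie at chr1:83116516-83116815, chr5:30012864-30013163, chr7:125552021-125552320, chr2:122147437-122147736 and chr11:53769764-53770063, all on the plus strand.

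In these windows the matches lay 4 to 130 bp from the peak centre. The decamer GGGAAATCCC of Tnip3, which encodes an A20-binding protein, was centred 4 bp from the peak centre. GGGGAATCCC of the transcription factor gene Irf1 was centred 9 bp from it, and GGGATTTTCC of the cytokine gene Il6 24.5 bp. Tnfaip3, the gene of the ubiquitin-editing enzyme A20, had GGAAATCCCC at 25 bp and GGGACACCCC at 88 bp. In Rel, the gene of the c-Rel subunit, a decamer on each strand shared all but 1 base, at 46 and 47 bp. The match of Ccl20, a chemokine gene, was at 43 bp and that of the interleukin-4 receptor gene Il4ra at 44.5 bp, the latter after the start and not before it. B2m, the light chain of class I molecules, had its match at 97 bp, the deubiquitinase gene Cyld at 84 bp and the kinase gene Map3k7 at 130 bp. Since these windows were picked for holding a match, they say nothing of how common one is. Within each list they also came from the genes with the peak centre nearest a gene end. The distances between match and centre given here are therefore partly set by the choice.

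The share of promoters with a kappaB decamer was then counted over all windows. A peak overlapped 1090 of the 20085 windows (5.43%). Of these, 257 held the decamer (23.6%, Wilson 95% interval 21.2 to 26.2%), against 734 of 18995 windows with no peak (3.86%, 3.6 to 4.15%) and 4.93% of all windows, a ratio of 6.10 between overlapped and other windows. For the 906 windows that a peak at a protein-coding gene end overlapped, the share was 24.1% (21.4 to 27.0%, 218 windows). For the other 184, whose nearest overlapping peak was outside the group, it was 21.2% (15.9 to 27.7%), and the intervals overlap. Where the peak centre itself lay in the window, 153 of 438 windows held the decamer (34.9%, 30.6 to 39.5%). Most windows under a peak, 833 of 1090, held no such match in their 300 bases.

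The share depended on how far the peak centre lay from the start. It was 32.9% (27.8 to 38.4%) for starts less than 100 bp from a centre, 26.5% (22.3 to 31.0%) from 100 to 250 bp and 14.2% (11 to 18.2%) from 250 to 500 bp. From 500 to 1000 bp it was 4.0% (2.19 to 7.21%), and beyond 50 kb it was 3.56% (3.25 to 3.90%). A window reaches 250 bases upstream and 50 bases downstream of the start, so a peak centre beyond these limits lies outside it. How much of the fall with distance comes from this was not tested. Windows with the peak centre upstream of the start held the decamer in 29.8% of cases (26.3 to 33.6%), those with the centre downstream in 15.4% (12.5 to 19%), which the same unequal reach of the window affects.

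**Figure D1:**
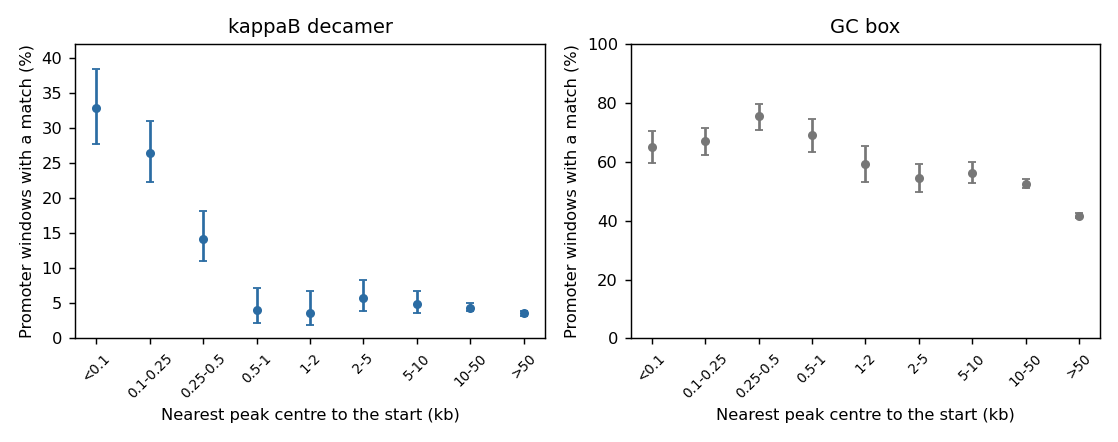
Percent of RefSeq promoter windows with a kappaB decamer (left) and a GC box (right) by the distance in kb from the start to the nearest RelA peak centre, with Wilson 95% intervals. The kappaB share goes from 32.9% below 100 bp to 4.0% between 500 and 1000 bp, while the GC box share stays between 65.1 and 75.5% over the same distances. Beyond 50 kb the kappaB share is 3.56% and the GC box share is lower too, at 41.6%.

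Base composition moved with peaks as well. The median GC content was 62.7% in overlapped windows and 56.3% in the others, and 72.9% against 47.6% had a ratio of observed to expected CpG of at least 0.6. With all windows split by GC content into 4 classes of like size, in the class poorest in GC, the decamer was in 17.4% of overlapped windows (10.2 to 28.0%, 12 of 69) and in 1.97% of the others. In the middle classes the shares were 21.3 against 4.29% and 22.6 against 4.26%. In the richest class the shares were 26.2% (22.4 to 30.4%, 122 of 465) and 5.01%. The overlapped windows had the higher share in each of the 4 classes.

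The other 13 patterns of the list were searched in the same windows, on both strands. The nonamer GGAANTTCC, which can lie inside a decamer, was in 4.13% of overlapped and 0.895% of other windows. The GC box GGGCGG, bound by Sp1-type factors, was in 69.8 and 45.7%, and the ETS pattern CCGGAAG in 16.7 and 11.6%. The cyclic AMP element TGACGTCA was in 3.76 and 2.22%, the E-box CACGTG in 10.8 and 7.72%, and the STAT pattern TTCCNGGAA in 1.83 and 1.18%, for which the intervals overlap. The TATA box TATAAA was in 6.33% of overlapped and 13.1% of other windows. The CCAAT box (CCAAT, 34.1 and 38.3%) was also in a smaller share of overlapped windows. The AP-1 pattern TGANTCA was in 5.32% (4.14 to 6.82%) and 7.15% (6.8 to 7.53%), intervals that overlap, and in 7.53% of windows with the peak centre inside. Shares were alike for a 10-letter interferon response element (3.30 and 3.38%), the TEAD element GGAATG (13.9 and 13.4%), YY1 (AAGATGGCG, 1.65 and 1.84%) and the 10-letter NRF1 palindrome (1.47 and 1.34%). The ratios ran from 0.484 for the TATA box to 1.70 for the cyclic AMP element outside the kappaB patterns, which had 6.10 and 4.61.

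**Figure D2:**
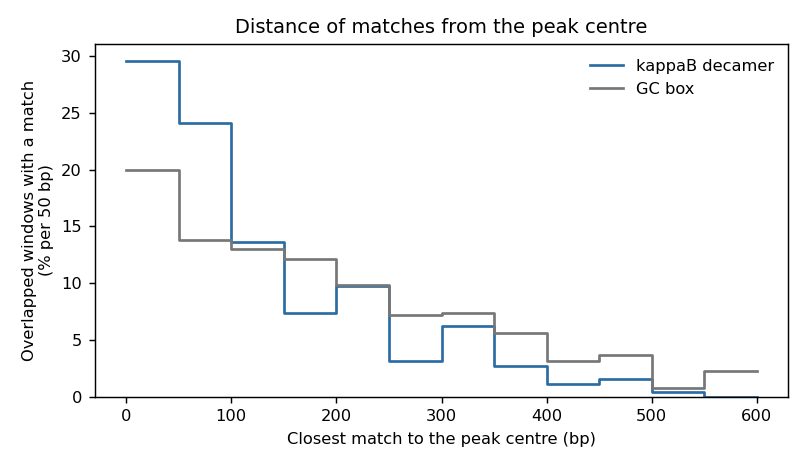
Distance in bp from the peak centre to the closest match, as the percent of overlapped windows with that match per 50 bp, for the kappaB decamer (257 windows) and the GC box (761 windows); distances over 600 bp are not drawn. The kappaB matches gather nearer to the centre, with medians of 90.5 bp and 159 bp.

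In windows with a match and a peak, the kappaB decamer lay a median of 90.5 bp from the peak centre (quartiles 39.5 and 203.5 bp), and 138 of 257 were within 100 bp (53.7%). The GC box, in 761 overlapped windows, lay at a median of 159 bp, with 33.9% within 100 bp. The closest match of a window was taken, and the number of matches per window was not compared between patterns. AP-1 matches, in 58 windows, had a median of 111 bp, and ETS matches 186.5 bp.

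More matches went with more peaks. A peak overlapped 4.36% of windows without a decamer, 23.7% (20.9 to 26.6%) of 858 with 1, 38.8% (30.6 to 47.7%) of 121 with 2, and 7 of 12 with 3 or more. The letters of the decamer also differed, in a comparison chosen after the values were seen; each is counted with its reverse complement. Windows with GGGACTTTCC were overlapped in 20 of 33 cases (60.6%, 43.7 to 75.3%), those with GGGGATTTCC in 13 of 22 (59.1%) and those with GGGAATCCCC in 15 of 26 (57.7%). GGGAAATCCC, the match of Tnip3 and Rel, was overlapped in 14 of 25 (56.0%). At the other extreme, GGGGCTCCCC was overlapped in 5 of 56 windows (8.93%, 3.87 to 19.3%), GGGAGACTCC in 2 of 31 (6.45%) and GGGAGTCCCC in 1 of 22 (4.55%). GGGACACCCC, the outer match of Tnfaip3, was in 24 windows, of which 1 was overlapped.

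The strand of the gene, which the rule did not use, showed which end a peak marked, with the start taken as the outermost one in the gene table. Of 999 peaks at a gene with a known strand, 908 lay within 1 kb of a start (90.9%, 88.9 to 92.5%) and 91 of the other end only. A peak near a start of 1 gene and the far end of another was counted at the start. At starts, the median absolute distance of the centre was 239 bp, 476 centres (52.4%) lay within 250 bp and 634 peaks (69.8%) covered the start base. At the other ends the median was 516 bp, 25 centres (27.5%) lay within 250 bp and 29 peaks (31.9%) covered the end base. On which side of the start the centres lay depended on the start used. From the outermost start, 522 lay downstream and 383 upstream, with a median 72.3 bp into the gene and quartiles at -150 and 320 bp. From the nearest start of the same gene in the promoter table, 414 of the same 908 lay downstream and 493 upstream, with a median of -27.5 bp and quartiles at -247 and 198 bp, and 110 peaks changed side. The median absolute distance, 225 bp, was close to the one above. Peaks at starts were also wider than those at the other ends, with medians of 780 and 668 bp.

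**Figure D3:**
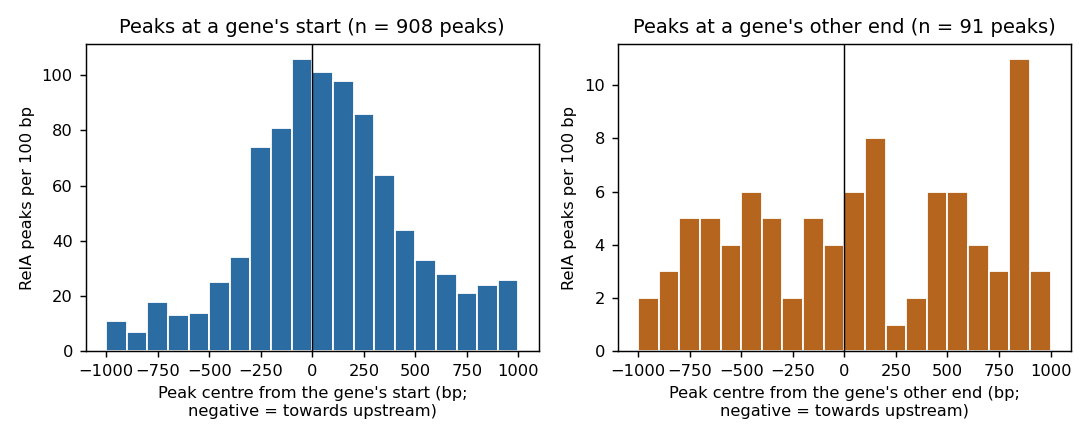
Number of RelA peaks per 100 bp by the position of the peak centre relative to the gene's outermost start (left, 908 peaks) or, for peaks near no start, to its other end (right, 91 peaks), in bp with negative values upstream. Peaks at starts gather around the start base with a longer shoulder downstream, and peaks at the other end show no such gathering.

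The 1218 peaks marked 1353 of 20558 protein-coding genes (6.58%). The distances of named genes that follow are from the outermost ends. Of NF-kB inhibitors and feedback genes, 10 of 17 had a peak (58.8%, 36.0 to 78.4%), with a median distance of 0.215 kb over the list against 66.6 kb over all protein-coding genes. Every peak with a known strand in this list was at a start. The peak centre lay 32.5 bp upstream at Tnfaip3, 53.5 bp upstream at Tnip3 and 115 bp upstream at Tnip1, another A20-binding protein gene. The I-kappa-B genes had it 190 bp upstream (Nfkbia, a peak of 1126 bp), 84.5 bp upstream (Nfkbie, 447 bp wide) and 215 bp downstream (Nfkbib). Among the nuclear I-kappa-B genes, Bcl3 had it 91.5 bp and Nfkbid 324.5 bp downstream, and at Nfkbiz it was 31.5 bp from a gene end. Cyld, which removes the ubiquitin chains that activate IKK, had it 83.5 bp downstream of the outermost start but 66.5 bp upstream of the start in the window printed above. Decamers were in the promoter windows of Tnip1 (3 matches in 1 window), Nfkbid (2), Nfkbia, Nfkbie and Bcl3 as well as in those printed above, and in none of Nfkbib. The members with no peak within 1 kb were Zfp36 (2364.5 bp away), Zc3h12a (2975 bp), N4bp1 (6513 bp), Nfkbil1 (9698.5 bp), Otud7b (16491 bp), Otulin (151777 bp) and Tnip2 (459406 bp).

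Genes of NF-kB subunits and kinases had a peak in 9 of 14 cases (64.3%, 38.8 to 83.7%), but in 5 of 14 when peaks narrower than the median width were left out. The centre was 133.5 bp upstream of Rel and 205.5 bp upstream of Rela, whose 1521 bp peak was the widest of this list, and a second, 759 bp peak lay 868.5 bp past the other end of Rela. The p50 precursor gene Nfkb1 had a centre 211.5 bp and Relb, a subunit of the alternative pathway, 34.5 bp from a gene end. Kinase genes had theirs farther out: 392 bp upstream at Map3k14, which encodes NIK, 397.5 bp downstream at Map3k7 (TAK1) but 217.5 bp upstream of its printed start, 632 bp downstream at Tbk1, 703.5 bp upstream at Ikbke and 332 bp from an end at Map3k8. Rela and Map3k14 had a window under the peak without a decamer. Ikbkb (1637.5 bp away), Nfkb2 (4061 bp), Tab1 (5294 bp), Tab2 (13076 bp) and Chuk (159746 bp) had no peak within 1 kb of an outermost end. Nfkb2, the p52 precursor gene, nevertheless had a peak over all 3 of its promoter windows, which lie at other starts and hold up to 3 decamers. It was 1 of 10 listed genes with no peak by the rule but a promoter window under one.

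Receptor adaptors and ligases had a peak in 7 of 23 cases (30.4%, 15.6 to 50.9%), in 4 within 0.5 kb or with wider peaks only, and in 11 within 2 kb. The closest were Fadd, the adaptor of death receptors (33.5 bp downstream), Tank, which binds TRAF proteins (72.5 bp downstream), and the ubiquitin ligase gene Birc3 (138.5 bp downstream). Rnf31, the catalytic subunit of the linear ubiquitin ligase, had it 444 bp upstream, in a peak shared with Psme2, and Irak3, an inhibitor of interleukin-1 signalling, 513 bp downstream of its outermost start and 20 bp upstream of another. Ripk2 had one 528 bp from an end. No decamer was in the windows of Fadd, Birc3, Rnf31 or Irak3.

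Chemokine genes had a peak in 9 of 22 cases (40.9%, 23.3 to 61.3%), and in 3 of 22 when peaks narrower than the median width were left out. Cxcl5 and Ccl5, which attract neutrophils and T cells, had centres 2.5 and 145 bp from an end, and Cxcl16 162.5 bp. Ccl20 had it 32.5 bp, Cxcl10 147 bp and Cxcl1 236 bp upstream of the start, and the windows of Cxcl10 and Cxcl1 held 2 decamers each. At Ccl8 and Cxcl9, named after their values were seen, the centre lay 468 and 569.5 bp before the other end and not at the start. Of cytokine and growth factor genes, 4 of 30 had a peak (13.3%, 5.31 to 29.7%), an interval that reaches below the 6.58% of all genes, and 7 had one within 2 kb. They were Il6 (15 bp upstream), the macrophage growth factor gene Csf1 (73.5 bp downstream), Il15 (460 bp from an end) and Tnf, where the peak lay 186.5 bp past the other end and not at the start.

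Surface receptor and adhesion genes had a peak in 12 of 31 cases (38.7%, 23.7 to 56.2%). Il4ra had it 69 bp downstream, the shared cytokine receptor gene Il6st 70.5 bp downstream, Madcam1 83.5 bp upstream and the proteoglycan gene Sdc4 101.5 bp upstream. Cd83 and the leukocyte-binding Vcam1 had centres 53 and 105.5 bp from an end. Antigen presentation genes had one in 10 of 18 cases (55.6%, 33.7 to 75.4%): B2m 24.5 bp upstream, the class I heavy chain genes H2-Q7, H2-Q4 and H2-D1 at 65.5 bp downstream, 98 bp upstream and 113.5 bp upstream, Tapbp, a peptide-loading chaperone, 144 bp downstream, and Psme2, a proteasome activator, 168 bp upstream. The class I genes are close copies, so it is uncertain to which of them a read belongs. Of interferon and STAT axis genes, 7 of 26 had a peak (26.9%, 13.7 to 46.1%), with Irf1 at 17.5 bp and the GTPase genes Gbp2 and Gbp5 at 123 and 124 bp upstream. Gbp3 followed at 249 bp downstream of its outermost start, 91 bp upstream of another, and Ddx58, which encodes the RNA sensor RIG-I, at 374.5 bp downstream, and the Gbp genes too are close copies of each other.

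Survival and death genes had a peak in 6 of 22 cases (27.3%, 13.2 to 48.2%) and in 10 within 2 kb. Among them were the superoxide dismutase gene Sod2 (22 bp downstream), the inflammatory caspase gene Casp4 (68.5 bp upstream, 2 decamers), Ier3 (236.5 bp upstream), Gadd45b, a stress gene with 2 peaks at its start (319 bp downstream and 512.5 bp upstream), and Tnfaip8 (499 bp from an end). Early response transcription factor genes had one in 7 of 30 cases (23.3%, 11.8 to 40.9%). Btg2, an antiproliferative gene, had it 20.5 bp upstream and Atf3 44 bp downstream of the start, whereas at Klf6 it lay 60 bp past the other end. Ier2, Nfatc1 and Klf10 had centres 220.5, 270.5 and 287 bp from an end. Enzymes and secreted effectors had one in 6 of 27 cases (22.2%, 10.6 to 40.8%): the complement genes C3 (62.5 bp upstream), C1s1 (164 bp upstream) and Cfb (123 bp from an end), the metalloreductase gene Steap4 (177 bp upstream), Plau (202 bp from an end) and Gch1 (356.5 bp downstream).

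These 11 lists together held 87 of the 1353 genes with a peak, 33.5% (28.0 to 39.4%) of their 260 members on these chromosomes. Their promoters also held the decamer more often once a peak was present. Of 60 listed genes whose window was covered by their own peak, 33 held a decamer (55.0%, 42.5 to 66.9%), against 169 of 736 genes outside the lists (23%, 20.1 to 26.1%). With no window under a peak, 17 of 135 listed genes (12.6%, 8.01 to 19.2%) and 674 of 15369 others (4.39%, 4.07 to 4.72%) held one. The lists were written from general knowledge of NF-kB targets and with earlier results of these data known, so neither their share of peaks nor of decamers is independent support.

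**Figure D4:**
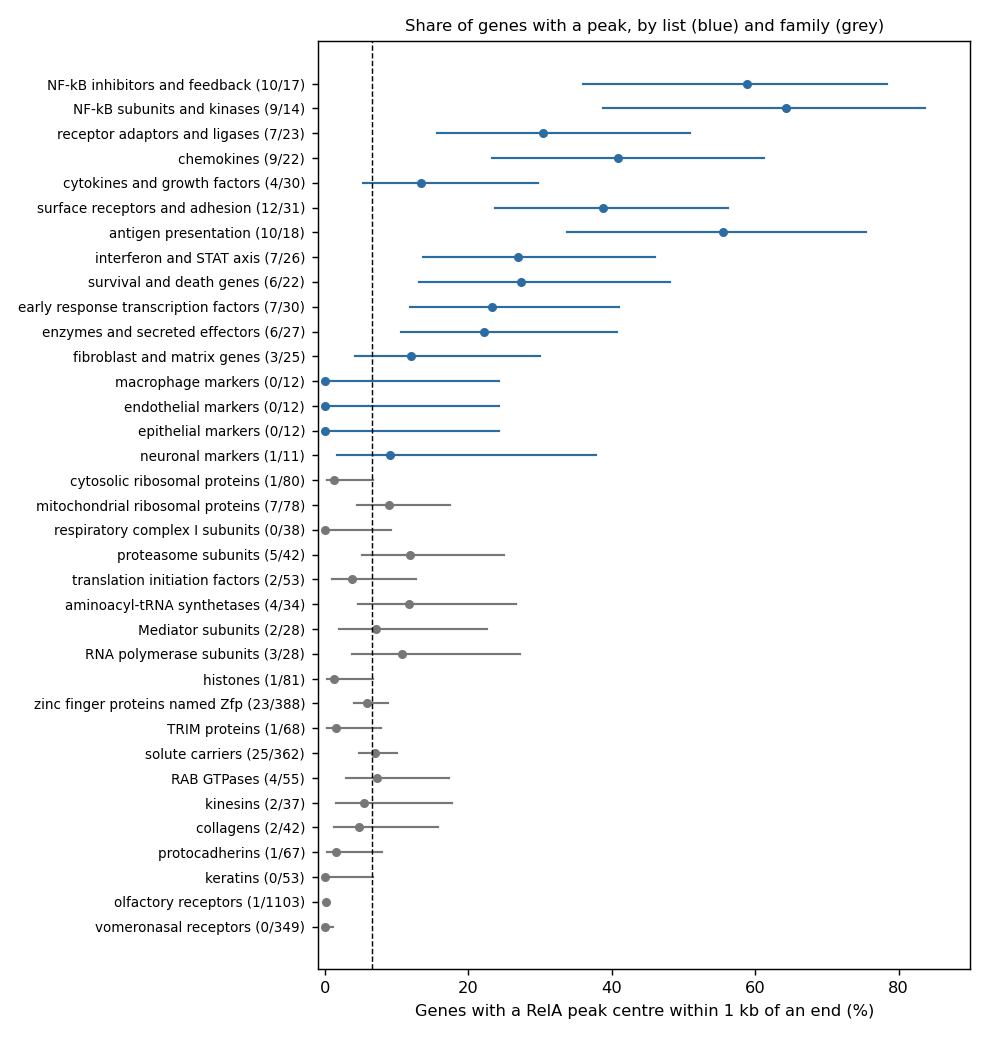
Percent of genes with a RelA peak centre within 1 kb of an end for 16 gene lists (blue) and 19 symbol families (grey), with Wilson 95% intervals and counts in brackets; the dashed line is the 6.58% of all protein-coding genes. The NF-kB lists and antigen presentation lie at 55.6 to 64.3%, and the interval of every family other than olfactory and vomeronasal receptors includes the line.

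Fibroblast and matrix genes had a peak in 3 of 25 cases (12%, 4.17 to 30.0%). The collagen gene Col5a1 had the peak centre on its outermost start base, 44 bp upstream of the start in the promoter table. The mesenchymal factor gene Prrx1 had it 233 bp downstream of the outermost start but 1262 bp upstream of that in the promoter table, and S100a4 had it 752 bp downstream. None of 12 macrophage, 12 endothelial and 12 epithelial marker genes had one, with a Wilson bound of 24.2% for each list. Of 11 neuronal markers, 1 did (9.09%, 1.62 to 37.7%), Camk2a at 772.5 bp. The 6.58% of all protein-coding genes lay within the interval of every list in this paragraph. The counts therefore set none of these lists apart from all genes or from each other.

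Most genes with a peak, 1262 of 1353, stood in none of the lists, and families chosen by symbol alone showed where these fell. Shares near that of all genes were found for solute carriers (25 of 362, 6.91%, among them the glucose transporter gene Slc2a6 at 2.5 bp, the arginine transporter gene Slc7a1 at 21.5 bp and Slc25a4 at 28 bp, all upstream) and for Zfp zinc finger genes (23 of 388, 5.93%, with Zfp456 at 38 bp, Zfp850 at 54 bp and Zfp111 at 77 bp). RAB GTPases (4 of 55, with Rab5a at 325 bp), Mediator subunits (2 of 28, Med11 and Med13) and kinesins (2 of 37, Kif23 and Kif22) were also within counting error of it. Mitochondrial ribosomal protein genes had 7 of 78 (8.97%, 4.42 to 17.4%), led by Mrps21 at 78 bp, Mrpl17 at 118 bp and Mrpl40 at 127.5 bp. RNA polymerase subunits had 3 of 28 (Polr2e, Polr1d and Polr2a), aminoacyl-tRNA synthetases 4 of 34 (Vars2, Yars and Cars the closest) and proteasome subunits 5 of 42 (11.9%, 5.19 to 25%). Of the proteasome genes, Psma6 (44.5 bp) and Psme3 (188.5 bp) belong to the standard proteasome and its nuclear activator, while 3 of the 5 are also in the antigen presentation list: Psme2 and, named after their values were seen, Psmb9 and Psmb10.

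Lower shares whose intervals also reach 6.58% were found in other families. Cytosolic ribosomal protein genes had 1 of 80 (1.25%, 0.221 to 6.75%), Rps19 at 57.5 bp, and histone genes 1 of 81 (1.23%, 0.218 to 6.67%), H4c8 at 3.5 bp upstream. TRIM genes had 1 of 68 (1.47%, 0.26 to 7.87%, Trim6) and protocadherins 1 of 67 (1.49%, 0.264 to 7.98%, Pcdh10). Translation initiation factors had 2 of 53 (3.77%, 1.04 to 12.8%, Eif3c and Eif6) and collagens 2 of 42 (4.76%, 1.32 to 15.8%, Col5a1 and Col13a1). Complex I subunits had 0 of 38, with a Wilson bound of 9.18%, and keratins 0 of 53, with a Wilson bound of 6.76%. The intervals lay below that of all genes for olfactory and vomeronasal receptors. Olfactory receptors, known for their expression in the nose, had 1 of 1103 (0.0907%, 0.0160 to 0.512%), Olfr433 at 991 bp. Vomeronasal receptors had 0 of 349, with a Wilson bound of 1.09%.

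Peaks at protein-coding gene ends were wider than the rest of the list. Their median width was 766 bp (quartiles 631 and 922 bp, range 327 to 2015 bp), against 679 bp (583 and 802 bp) for the other 8470 autosomal peaks and 697 bp for the 455 peaks at noncoding gene ends only. Widths of at least 1000 bp were found in 17.0% of them and in 7.56% of the other autosomal peaks. They made up 8.56, 9.76, 11.2 and 20.8% of the autosomal peaks in 4 classes of like size from narrowest to widest. The greater width was that of peaks at starts, where the strand was known, with a median of 780 bp. Peaks at the other end only had a median of 668 bp (quartiles 600 and 770 bp), not above the 679 bp of the other autosomal peaks. Among overlapped promoter windows, the decamer share varied little with the width of the peak, at 21.5% (17.0 to 26.8%) in the narrowest of 4 classes and 23.8% (19.1 to 29.2%) in the widest.

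**Figure D5:**
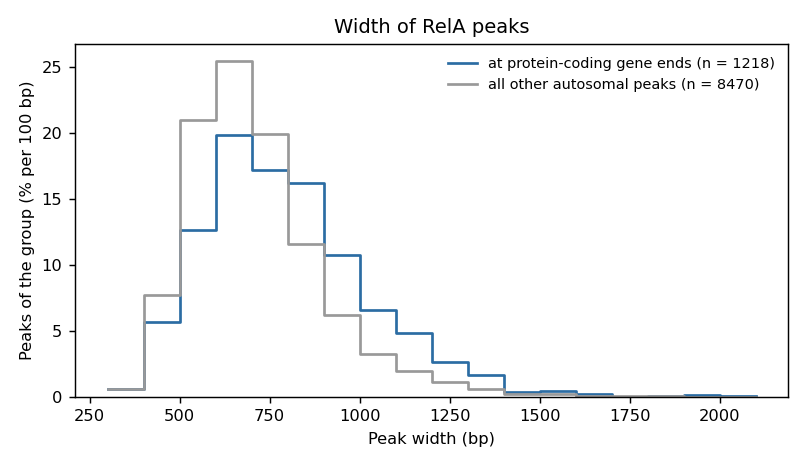
Width in bp of RelA peaks at protein-coding gene ends (1218) and of all other autosomal peaks (8470), as the percent of each group per 100 bp. The peaks at gene ends have a median of 766 bp against 679 bp and a heavier tail above 1000 bp.

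The 10 widest were often at genes outside the inflammatory lists, as were most genes with a peak (1262 of 1353 in none of the lists). The widest, of 2015 bp, covered the start of the pseudokinase gene Peak1, with its centre 126.5 bp upstream. A 1919 bp peak was at Zfp62, a 1914 bp peak at Aup1 and Htra2, a 1893 bp peak at Nfatc1, a calcium-regulated factor gene, and a 1678 bp peak at the cytokine receptor genes Il10rb and Ifnar2. Peaks of 1672, 1603, 1597, 1536 and 1524 bp followed at Slco5a1, Slc2a6, the small GTPase gene Gem, the RNA-binding protein gene Rbms1 and Tex264. Of the genes at these peaks with a promoter window, Tex264 had a decamer in it and Peak1, Zfp62, Slc2a6 and Rbms1 had none. At Ifnar2 the peak lay 839 bp past the other end of the gene. The lack of a decamer in the promoter window of Ifnar2 therefore says nothing of this peak.

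Single peaks could mark several genes. The ends of 2 genes were within 1 kb of 155 peaks, and 1 peak, of 692 bp on chromosome 3, served Ampd2, Gnat2 and Gm12500. In 82 peaks, starts on both strands were within 1 kb, and 56 of these were divergent, with the starts back to back at a median gap of 108 bp (21 to 892 bp) and a median peak width of 828 bp. A decamer was in the window of either gene at 15 of the 56. Counted singly, 218 of the 906 windows under a peak of the group held one (24.1%), and a divergent peak has the windows of 2 genes. Among pairs singled out after their values were seen, Psme2 and Rnf31, with starts 612 bp apart, shared a 1102 bp peak centred between them, while at Emc6 and Tax1bp3, 41 bp apart, the 1417 bp peak was centred 150.5 bp into Tax1bp3.

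Conversely, 22 genes had 2 peaks within 1 kb of their ends and none had more. In 13 of them the peaks were at different ends, as at Ifnar2 (2626 bp of summed width), Rela (2280 bp), Anxa5, 1810062G17Rik and Cyb5a, and in 9 at the same end, as at Atrnl1, Nfkbia (190 bp upstream and 828.5 bp downstream of the start), Cdk17 and Gadd45b. Anxa5 and 1810062G17Rik share a peak. Another peak of any kind lay within 10 kb of 144 of the 1218 (11.8%), against 1387 of the other 8470 autosomal peaks (16.4%). Within 2 kb the shares were close, at 32 (2.63%) and 200 (2.36%).

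Across chromosomes, peaks at protein-coding ends made up from 9.51% of peaks on chromosome 6 to 21.3% on chromosome 7 (118 of 555). As a share of protein-coding genes the range was 4.73% on chromosome 6 to 9.49% on chromosome 9. The values at the limit of 1 kb were those of Srsf1 and Wdr1 (990 bp each), Olfr433 (991 bp), Pnrc1 (991.5 bp) and Plxnb2 (998.5 bp) just inside, and Mchr1 (1003 bp), Bbc3 (1004.5 bp), Trim69 (1005 bp), Prr7 (1006.5 bp) and Mtrf1l (1015 bp) just outside.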

How the data were processed

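The tools named per the submitters' processing notes are MACS2, deepTools, Picard 1.13, SAMtools, Bowtie2 2.3 and cutadapt 1.9.1, and the build is mm10. Their roles, the threshold for a peak, any pooling and whether input was subtracted were not given in the sources used here. Per the labels' protocols, cells were fixed by cross-linking with disuccinimidyl glutarate and formaldehyde, which can also hold proteins that reach DNA through others. The authors deposited peak starts and ends in 3 columns, in base pairs, with no other value. No library entered a comparison, and depth was unknown.

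Starts were counted from 1. Gene ends came from the RefSeq GRCm38.p6 table, without 333 genes (107 protein-coding) that it places on other scaffolds of chromosomes 1 to 19. Strand and promoter sequence came from the RefSeq promoter table, and distances are from the outermost ends in the gene table unless stated. The symbol pattern for histones was widened after seeing the data. Of 339 listed genes, 332 matched a protein-coding gene on these chromosomes. Motifs were searched on both strands. The search for gene ends was tested on simulated peaks. Python 3.11.15, pandas 2.3.3 and scipy 1.17.1 were used.

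Members and lists were chosen with earlier results of these data known. Named were all genes of both NF-kB lists, the 6 closest of each other list and 3 closest of each family with a peak, the genes at the 10 widest peaks, genes with 2 peaks by summed width, shared peaks, and 5 peaks on each side of 1 kb. Printed promoters were 10 taken in list order, off chromosome 18, at most 3 from each of the first lists and at most 1 from each later list. Within a list, genes went by the distance of the peak centre from a gene end. Some genes that this rule names are not reported here. Alternatives were windows of 0.5 and 2 kb, any base of the peak, peaks within 1 kb merged, wider peaks only, the centre in the promoter, the nonamer and, chosen after seeing the data, 1 window per gene.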

Additional observations from a re-analysis of the deposited data

How the results depend on the processing

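With a window of 0.5 kb, 93.8% of peaks at genes with a strand were at a start, and with 2 kb 87.0%, with a median width of 744 bp. Keeping peaks of at least the list's median width, 687 bp, left 776 peaks at 886 genes, 93.6% at a start, with a median width of 872.5 bp, which the alternative itself raises. The share of overlapped promoters with a kappaB decamer was 34.9% with the peak centre inside the window. The nonamer gave 4.13%, against 0.895% without a peak. With 1 window per gene the share was 22.9%, against 3.69% without a peak. The NF-kB inhibitor and feedback list kept a count of 8 to 10 of 17 genes under the 5 alternatives. With wider peaks only, NF-kB subunits and kinases had 5 of 14 genes and chemokines 3 of 22, while antigen presentation had 10 of 18 under every one of the 5. Of the 34 other lists and families, the count moved by more than 1.5 times in 13 with 2 kb, 11 with wider peaks, 9 with 0.5 kb, 2 with any base of the peak and 0 with merged peaks. No paired analysis was possible because no value belongs to a library, and for the same reason no replicate could be left out. Depth was unknown, so a gene without a peak is not shown to be unbound.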

Other observations

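On chromosome X, which the rule leaves out, 12 of 135 peaks (8.89%, Wilson 95% interval 5.16 to 14.9%) were centred within 1 kb of a protein-coding gene end, and they marked 12 of 963 genes (1.25%, 0.714 to 2.17%), against 6.58% of genes on chromosomes 1 to 19.

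The decamer GGGGTATTCC was in 25 promoter windows and in none under a peak, with a Wilson bound of 13.3% on that share. These windows belonged to 23 genes, 20 of them named only by a Gm number, and such genes can be near-identical copies, so the windows are not independent. GGGACTTTCC, in 33 windows of 30 genes, was under a peak in 20. Both were singled out after their values were seen.

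Genes with a peak were longer than protein-coding genes in general, with medians of 23277 and 17579 bp.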
